A study of Saccharomyces cerevisiae with 6 samples.

Results

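The genes described here encode the enzymes with which budding yeast makes lysine, the branched-chain amino acids isoleucine, valine and leucine, and the aromatic amino acids phenylalanine, tyrosine and tryptophan. They were chosen by name from 31 listed members. A gene entered through an array probe set annotated with that single gene, and 30 of the 31 members were measured, each by 1 probe set, while TRP1 was not analysed here. The 30 genes belong to 5449 S. cerevisiae genes tested in all, with 8 in lysine, 11 in branched-chain and 11 in aromatic synthesis.

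Affymetrix arrays were hybridised with biotin-labelled copies of total RNA. The BAS1 deletion mutant gave 3 arrays, and the wild-type strain FY4, which carries BAS1, gave 3. Per the labels, both strains were grown in batch in minimal medium with glucose at 30°C and were harvested in exponential growth at 1 cell density. The labels give no parent strain, marker or clone number for the deletion mutant, and they do not say whether replicates were separate cultures, so the p-values speak only of the spread among these arrays, which may be technical.

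Bas1 is a Myb-related activator that works with Pho2 on the genes of purine and histidine synthesis. The pathways below are not known as Bas1 targets. In yeast most genes of these pathways are under general amino acid control, in which the activator Gcn4 raises many synthesis pathways when any amino acid runs short. Leu3 adds control of the leucine branch in response to the intermediate alpha-isopropylmalate, and Lys14 adds control of lysine genes in response to alpha-aminoadipate semialdehyde. In a medium that supplies no amino acids all 3 pathways have to run.

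The values are intensities, given below as log2 levels. BAS1 (YKR099W) checked the labels. Its levels were 4.86, 4.76 and 4.86 in the deletion arrays, all below background, against 11.18, 10.96 and 11.14 in the wild-type arrays. The median level of all tested genes was 11.10 to 11.14 in the deletion arrays and 10.94 to 10.997 in the wild-type arrays, so that the median log2 difference of all genes was 0.11 and not 0. That shift is as large as the difference of several members, and it moved with scaling, to -0.04 after centring each array on its median, to -0.07 after quantile normalization and to -0.00040 after cyclic loess. The 16 probe sets for 18S and 25S ribosomal RNA all had lower means in the deletion arrays, with a median log2 difference of -3.09. The part of the scaling and of the ribosomal RNA signal in the results below was not tested. Poly-A spike controls were low in deletion replicate 1 and in wild-type replicates 1 and 2, and high in the other arrays. Of the markers of alpha cells 4 of 4 rose (3 after array centring or cyclic loess, and 2 with 1 fall, that of MF(ALPHA)2 at -0.56, after quantile normalization), with a median level of 9.67 to 9.80 in the deletion arrays and 7.30 to 7.40 in the wild-type arrays, and MF(ALPHA)1 was below background in every wild-type array. Of 7 markers of a cells 1 rose and 1 fell, and the medians were 12.43 to 12.93 in the deletion arrays and 12.43 to 12.93 in the wild-type arrays. Beside these marker counts, 39.6% of all tested genes were called higher and 19.8% lower as deposited.

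The question here is how these genes stand in the deletion strain relative to FY4. The synthesis genes changed in both directions and by little. Of 30 genes, 13 rose and 6 fell in the deletion strain at an adjusted p under 0.05 (limma, Benjamini-Hochberg over all 5449 genes). The largest rise was 1.64-fold, in LYS5, and the largest fall 1.24-fold, in ARO7. Over all tested genes 59.5% were called, 39.6% as higher and 19.8% as lower, so the 63.3% of members called is near the background. The balance turned with scaling. Array centring gave 5 rises and 11 falls among the members, with 27.2% of all genes higher and 33.1% lower. Quantile normalization gave 9 and 8, with 24.9% and 35.5% of all genes, and cyclic loess 11 and 8, with 30.1% and 29.4%. No member reached a 2-fold change, against 9.47% of all genes that were called and changed at least 2-fold. The arrays of the strains did not overlap for 23 members, 14 of them higher and 9 lower, or 76.7%, beside 67.5% of all genes.

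The median log2 difference was 0.23 over the aromatic genes, 0.03 over the lysine genes and 0.0011 over the branched-chain genes, beside 0.11 over all genes. After array centring these medians were 0.07 for aromatic, -0.12 for lysine and -0.15 for branched-chain genes. Quantile normalization gave 0.12, -0.05 and -0.00040 in that order, and cyclic loess 0.19, 0.02 and 0.0038. The median size of a difference, without its sign, was 0.20 in the members and 0.27 in all genes. The members were bright. Their median level lay at the percentile 91.7 of all genes, and the range ran from 24.5 for PHA2 to 98.7 for ILV5. All members were above background in every array. RMA summaries can understate differences near the top of the intensity scale, and whether this held for the members was not tested.

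**Figure D1:**
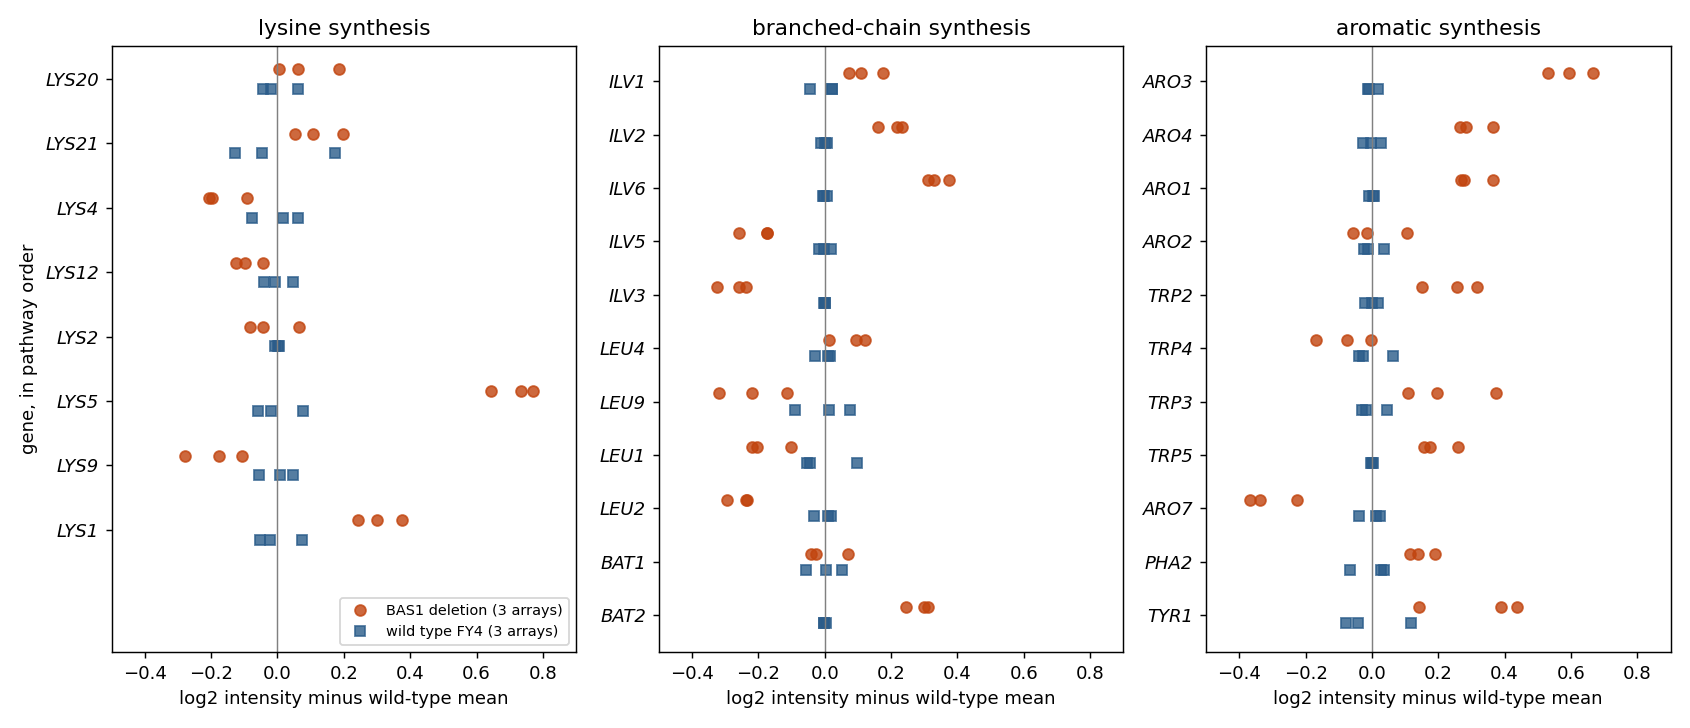
Log2 intensity of each measured gene in each array, minus the mean of its wild-type arrays, for the 3 pathways; circles are the 3 BAS1 deletion arrays and squares the 3 wild-type arrays. LYS5 and ARO3 stand farthest to the right, with log2 differences of 0.72 and 0.60, and ARO7 and ILV3 stand to the left, with -0.31 and -0.27.

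Lysine is made in fungi from 2-oxoglutarate through alpha-aminoadipate. In the lysine pathway 2 of 8 genes rose, 1 fell and 5 did not pass the test. The shares over all genes were 39.6% higher and 19.8% lower. The rises were in LYS5 and LYS1 and the fall in LYS9, all on the later part of the pathway, from alpha-aminoadipate to lysine.

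LYS5 (YGL154C) encodes the phosphopantetheinyl transferase that activates the alpha-aminoadipate reductase Lys2. Its levels were 10.96, 11.05 and 11.09 in the deletion arrays, against 10.30, 10.39 and 10.26 in the wild-type arrays. The groups stood well apart. LYS5 rose 1.64-fold (log2 difference 0.72, SE 0.06, limma adjusted p = 1.3e-04), and its difference stood at the percentile 86.6 of all genes. Its substrate gene LYS2 (YBR115C), which encodes the reductase itself, had levels of 13.07, 13.22 and 13.11 in the deletion arrays and 13.15, 13.16 and 13.16 in the wild-type arrays. Those groups overlapped, with a log2 difference of -0.02 and a 95% interval from -0.15 to 0.11.

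The final steps run through saccharopine, made by Lys9 and turned into lysine by Lys1, both saccharopine dehydrogenases. LYS1 (YIR034C) had levels of 12.99, 13.12 and 13.05 in the deletion arrays and 12.73, 12.70 and 12.82 in the wild-type arrays. It rose 1.24-fold (log2 difference 0.31, SE 0.06, limma adjusted p = 0.00481). LYS9 (YNR050C) went the other way, with levels of 13.69, 13.87 and 13.80 in the deletion arrays and 13.92, 13.98 and 14.02 in the wild-type arrays. Its groups did not overlap and it fell 1.14-fold (log2 difference -0.19, SE 0.06, limma adjusted p = 0.0364). With 5 arrays the LYS9 difference ran from -0.23 to -0.14, and its call ended in 5 of the 6 fits. It ended without deletion replicate 1 (limma adjusted p = 0.096) or 3 (0.0842), and without wild-type replicate 1 (0.0514), 2 (0.0833) or 3 (0.0958). Limma then called 0 lysine falls without deletion replicate 1 or 3 or wild-type replicate 1 or 3 (0, 1, 1 and 0 at an unadjusted p under 0.05), and 2 without deletion replicate 2.

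None of the 4 genes from 2-oxoglutarate to alpha-aminoadipate passed limma's test, and 1 of them, LYS4, lay at an unadjusted p under 0.05. LYS20 and LYS21 encode the homocitrate synthases of the first step. LYS20 averaged 13.98 ± 0.09 in the deletion strain and 13.90 ± 0.06 in wild type (SD, n = 3 each). LYS21 averaged 13.07 ± 0.07 in the deletion strain and 12.95 ± 0.16 in wild type (SD, n = 3 each), and it passed only without wild-type replicate 3, with a log2 difference of 0.21 (limma adjusted p = 0.0437). LYS4, the homoaconitase gene, had levels of 12.63, 12.75 and 12.64 in the deletion arrays, below all 3 wild-type values of 12.86, 12.76 and 12.90, with a limma adjusted p of 0.0507. It passed without deletion replicate 2 (limma adjusted p = 0.0439) or wild-type replicate 2 (0.036), after quantile normalization (log2 difference -0.29, 0.00689) and after cyclic loess (-0.21, 0.0258). LYS12, the homoisocitrate dehydrogenase gene, was also lower in every deletion array than in any wild-type array, at a log2 difference of -0.09 (limma adjusted p = 0.159).

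Centring the arrays gave 1 rise and 4 falls among the lysine genes, with 27.2% of all genes higher and 33.1% lower. LYS1 then no longer passed (0.15), LYS9 stayed called (-0.34), and LYS4 (-0.32), LYS12 (-0.24) and LYS2 (-0.17) were called lower. Low-spike arrays alone gave the pathway a median log2 difference of -0.022, and high-spike arrays alone -0.0063, each a comparison of 2 arrays with 1.

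Isoleucine and valine share a mitochondrial route, and the leucine branch leaves it at the last intermediate of valine synthesis. Of the 11 branched-chain genes, 3 rose, 4 fell and 4 did not pass, beside 39.6% of all genes called higher and 19.8% lower. Within the shared route the genes split by step. Both subunits of acetolactate synthase rose, and the genes of the following pair of steps, ILV5 and ILV3, fell.

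ILV6 (YCL009C), the regulatory subunit of acetolactate synthase, had levels of 13.77, 13.82 and 13.76 in the deletion arrays and 13.44, 13.45 and 13.44 in the wild-type arrays. It rose 1.26-fold (log2 difference 0.34, SE 0.04, limma adjusted p = 8.15e-04). ILV2 (YMR108W), the catalytic subunit, averaged 13.72 ± 0.04 in the deletion strain and 13.51 ± 0.01 in wild type (SD, n = 3 each) and rose 1.15-fold. The wild-type arrays of both genes agreed to within a few hundredths of a log2 unit, so that even these small rises exceeded the spread. ILV3 (YJR016C), the dihydroxyacid dehydratase gene, had levels of 13.52, 13.54 and 13.45 in the deletion arrays and 13.78, 13.78 and 13.77 in the wild-type arrays. It fell 1.21-fold (log2 difference -0.27, SE 0.04, limma adjusted p = 0.00249). ILV5 (YLR355C), which encodes the acetohydroxyacid reductoisomerase and was the brightest member, averaged 14.11 ± 0.05 in the deletion strain and 14.32 ± 0.02 in wild type (SD, n = 3 each) and fell 1.15-fold. ILV1, the threonine deaminase gene that opens isoleucine synthesis, was higher in every deletion array than in any wild-type array but did not pass (log2 difference 0.12, limma adjusted p = 0.0762).

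No gene of the leucine branch rose in limma's test, or at an unadjusted p under 0.05, and 2 of 4 fell. Over all genes 39.6% were called higher and 19.8% lower. LEU2 (YCL018W), the beta-isopropylmalate dehydrogenase gene, had levels of 13.55, 13.55 and 13.49 in the deletion arrays, all under the wild-type levels of 13.79, 13.80 and 13.75. It fell 1.19-fold (log2 difference -0.25, SE 0.04, limma adjusted p = 0.00326). LEU2 is used as a marker gene in many laboratory strains, and the labels name no marker for the deletion mutant. The LEU2 signal stood far above background in both strains, and the part of a marker in its fall was not tested. LEU9 (YOR108W), a gene for alpha-isopropylmalate synthase, fell 1.16-fold (log2 difference -0.22, SE 0.07, limma adjusted p = 0.04). That call ended without deletion replicate 1 (0.089) or 3 (0.119) and without wild-type replicate 1 (0.102) or 3 (0.105). LEU1, the isopropylmalate isomerase gene, had levels of 13.74, 13.85 and 13.73 in the deletion arrays and 13.90, 13.89 and 14.04 in the wild-type arrays, without overlap, and a limma adjusted p of 0.0513. It passed without deletion replicate 2 (0.0489).

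Branched-chain aminotransferases close the routes to all 3 amino acids, Bat1 in mitochondria and Bat2 in the cytosol. BAT2 (YJR148W) had levels of 11.99, 12.00 and 11.93 in the deletion arrays and 11.69 in all 3 wild-type arrays, and it rose 1.22-fold (log2 difference 0.29, SE 0.04, limma adjusted p = 0.00173). BAT1 (YHR208W) had levels of 13.95, 14.06 and 13.97 in the deletion arrays and 14.00, 13.94 and 14.04 in the wild-type arrays. The BAT1 groups overlapped throughout, with a 95% interval of the log2 difference from -0.13 to 0.13.

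Array centring gave 1 rise and 5 falls among the branched-chain genes, with ILV6 as the rise (0.18), while ILV2 (0.050) and BAT2 (0.13) no longer passed. Centred in this way, 27.2% of all genes were called higher and 33.1% lower. Low-spike arrays alone gave a pathway median of -0.016, and high-spike arrays alone -0.029, again from 2 arrays against 1.

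**Figure D2:**
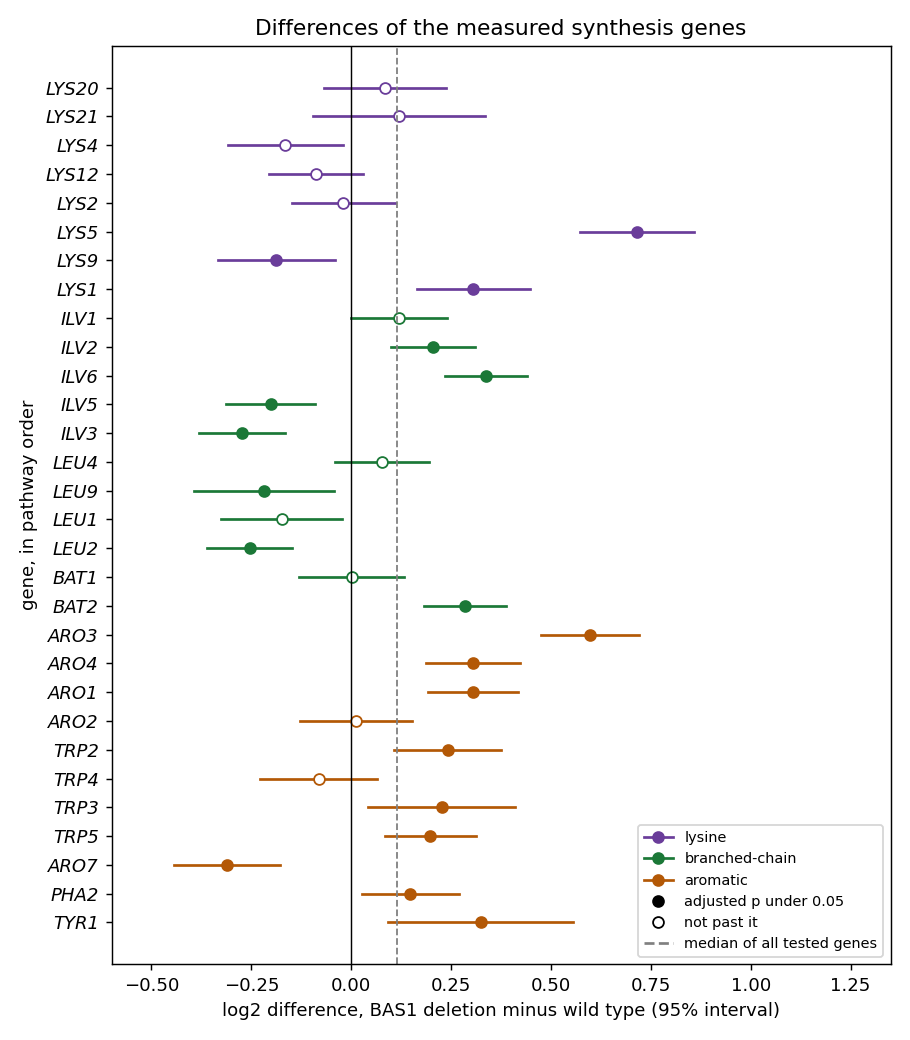
Log2 difference of each gene, BAS1 deletion minus wild type, with limma's 95% interval; filled points passed an adjusted p of 0.05, and the dashed line is the median of all tested genes, 0.11. Intervals of 13 genes lie right of 0 with a filled point, those of 6 lie left of it with a filled point.

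Aromatic synthesis runs from DAHP synthase through the shikimate steps to chorismate, where the route to tryptophan leaves that to phenylalanine and tyrosine. Of the 11 aromatic genes measured, 8 rose, 1 fell and 2 did not pass, beside 39.6% of all genes called higher and 19.8% lower. The trunk had 3 rises in 4 genes, the tryptophan branch 3 in 4, and the phenylalanine and tyrosine branch 2 rises and 1 fall in 3.

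ARO3 (YDR035W) encodes the DAHP synthase known to be inhibited by phenylalanine. Its levels were 13.33, 13.40 and 13.26 in the deletion arrays, against 12.72, 12.75 and 12.72 in the wild-type arrays. It rose 1.51-fold (log2 difference 0.60, SE 0.05, limma adjusted p = 1.6e-04). ARO4 (YBR249C), the tyrosine-inhibited isozyme, had levels of 13.77, 13.85 and 13.75 in the deletion arrays and 13.46, 13.48 and 13.51 in the wild-type arrays. ARO1 (YDR127W), whose product carries out all the steps between DAHP and the substrate of chorismate synthase, had levels of 13.64, 13.74 and 13.65 in the deletion arrays and 13.36, 13.38 and 13.37 in the wild-type arrays. ARO4 rose 1.24-fold and ARO1 1.23-fold, with limma adjusted p of 0.00219 and 0.00192. ARO2 (YGL148W), the chorismate synthase gene that ends the trunk, averaged 13.04 ± 0.09 in the deletion strain and 13.02 ± 0.03 in wild type (SD, n = 3 each), and its 95% interval ran from -0.13 to 0.15.

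In the tryptophan branch the rises were small. TRP2, an anthranilate synthase subunit gene, rose 1.18-fold, TRP3, whose product holds a further anthranilate synthase activity and indole-glycerol-phosphate synthase, 1.17-fold, and TRP5, the tryptophan synthase gene, 1.15-fold. TRP5 (YGL026C) had levels of 13.73, 13.82 and 13.72 in the deletion arrays and 13.56 in all 3 wild-type arrays (limma adjusted p = 0.0116). TRP4, the anthranilate phosphoribosyltransferase gene, did not pass, with levels of 11.37, 11.53 and 11.46 in the deletion arrays and 11.50, 11.60 and 11.51 in the wild-type arrays. It was called lower after array centring (-0.24), quantile normalization (-0.20) and cyclic loess (-0.16).

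Chorismate mutase, encoded by ARO7, takes chorismate to prephenate and away from tryptophan. ARO7 (YPR060C) was the single aromatic gene that fell. Its levels were 11.44, 11.58 and 11.47 in the deletion arrays, below the wild-type levels of 11.77, 11.83 and 11.82, and it fell 1.24-fold (log2 difference -0.31, SE 0.06, limma adjusted p = 0.00351). TYR1, the prephenate dehydrogenase gene of tyrosine synthesis, had levels of 11.48, 11.77 and 11.72 in the deletion arrays and 11.26, 11.29 and 11.45 in the wild-type arrays. The lowest deletion value of TYR1 stood just above the highest wild-type value, and the gene rose 1.25-fold (limma adjusted p = 0.0261). PHA2, the prephenate dehydratase gene of phenylalanine synthesis and the dimmest member, averaged 10.22 ± 0.04 in the deletion strain and 10.07 ± 0.06 in wild type (SD, n = 3 each) and rose 1.11-fold (limma adjusted p = 0.0428).

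The aromatic count moved with the number of arrays and with scaling. Without deletion replicate 2 or 3, or without wild-type replicate 1 or 2, limma called 5 rises in place of 8. TRP3, PHA2 and TYR1 lost their calls in each of those fits, with adjusted p from 0.0691 to 0.119. TRP3 and PHA2 did so too without wild-type replicate 3 (0.0578 and 0.0644), and PHA2 without deletion replicate 1 (0.0654). With 1 array left out the log2 differences ran from 0.15 to 0.29 for TRP3, from 0.12 to 0.17 for PHA2 and from 0.27 to 0.41 for TYR1, all above 0. Array centring left 3 rises, those of ARO3 (0.44), ARO4 (0.15) and ARO1 (0.15), and 2 falls, quantile normalization gave 4 rises and 2 falls, and cyclic loess 6 and 2. Centring called 27.2% of all genes higher and 33.1% lower. The shares were 24.9% and 35.5% after quantile normalization and 30.1% and 29.4% after cyclic loess. PHA2 turned to -0.0067, -0.090 and -0.036 in these 3 fits, without passing. Low-spike arrays alone gave a pathway median of 0.17, and high-spike arrays alone 0.22.

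**Figure D3:**
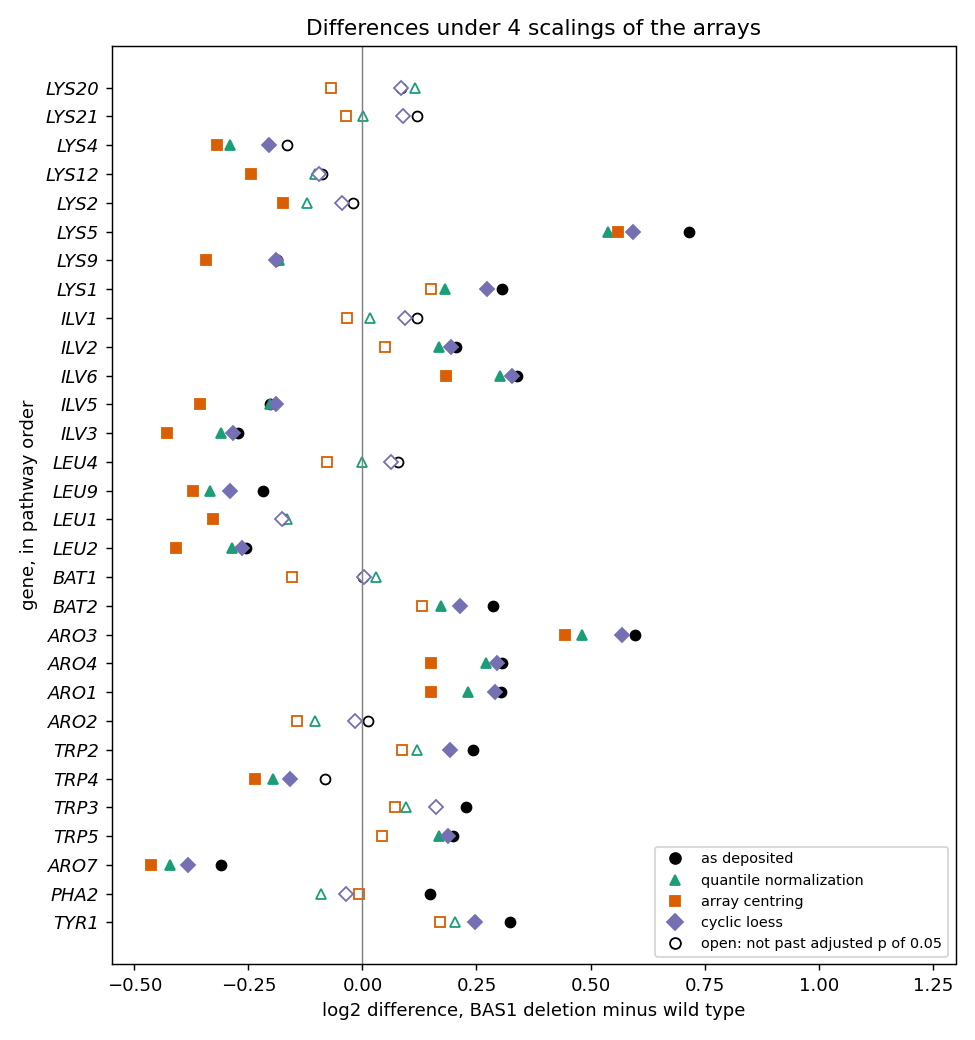
Log2 difference of each gene, BAS1 deletion minus wild type, on the values as deposited and after 3 other scalings of the arrays; filled symbols passed an adjusted p of 0.05. LYS5, ILV6, ARO3, ARO4 and ARO1 stay filled and right of 0 under all 4, and LYS9, ILV5, ILV3, LEU9, LEU2 and ARO7 stay filled and left of 0.

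Under all 4 scalings, 5 genes were called as higher, namely LYS5, ILV6, ARO3, ARO4 and ARO1, and 6 as lower, namely LYS9, ILV5, ILV3, LEU9, LEU2 and ARO7. These are 16.7% and 20% of the members, beside 23.3% and 19.7% of all genes called in 1 direction under all 4 scalings. With each array left out in turn, 10 rises and 4 falls passed in all 6 fits, or 33.3% and 13.3% of the members, beside 32.2% and 14.2% of all genes. Of the 20 fits run, some are spike-level sets of 2 arrays against 1. In all fits but those, LYS5, ILV6, ARO3, ARO4 and ARO1 were called higher and ILV3, LEU2 and ARO7 lower. The share of all genes that kept a call in the same fits was not taken, so no background stands beside these calls. Over all 20 fits the log2 difference ran from 0.54 to 0.81 for LYS5 and from 0.44 to 0.63 for ARO3.

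A pair of genes encodes the same step at 4 places in these pathways. For each pair the log2 difference between both genes was taken within every array and compared between the strains. A uniform shift of the whole array cancels there, but scaling that depends on the level does not. The pairs were not run under other scalings. After quantile normalization the genes themselves differed by 0.03 for BAT1 and 0.17 for BAT2, beside 0.0011 and 0.29 as deposited. They differed by 0.48 for ARO3 and 0.27 for ARO4, and by -0.00040 for LEU4 and -0.33 for LEU9. LYS20 differed by 0.11 and LYS21 by 0.00060, the reverse order of the deposited values, 0.08 and 0.12. These within-array values serve only for that comparison, since different probe sets do not measure levels on 1 scale. For ARO3 minus ARO4 the values were -0.44, -0.45 and -0.49 in the deletion arrays and -0.74, -0.73 and -0.79 in the wild-type arrays, a change of 0.29. For LEU4 minus LEU9 they were 1.91, 1.84 and 1.93 in the deletion arrays and 1.60, 1.66 and 1.54 in the wild-type arrays, also a change of 0.29. For BAT1 minus BAT2 they were 1.96, 2.06 and 2.03 in the deletion arrays and 2.31, 2.25 and 2.36 in the wild-type arrays, a change of -0.28.

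In each of these 3 pairs the arrays of the strains did not overlap. For LYS20 minus LYS21 the groups overlapped, at 0.90, 0.93 and 0.90 in the deletion arrays and 1.05, 0.95 and 0.83 in the wild-type arrays, with a change of -0.035. Exact two-sided permutation tests gave p = 0.1 for the 3 pairs without overlap, the smallest that 3 against 3 arrays allow, and p = 0.7 for LYS20 and LYS21. Adjusted over the 4 pairs the values were 0.133 and 0.7, so no pair passed, and the design could not reach 0.05. LEU4 itself, the main alpha-isopropylmalate synthase gene, averaged 13.51 ± 0.06 in the deletion strain and 13.43 ± 0.02 in wild type (SD, n = 3 each) and did not pass (limma adjusted p = 0.212).

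**Figure D4:**
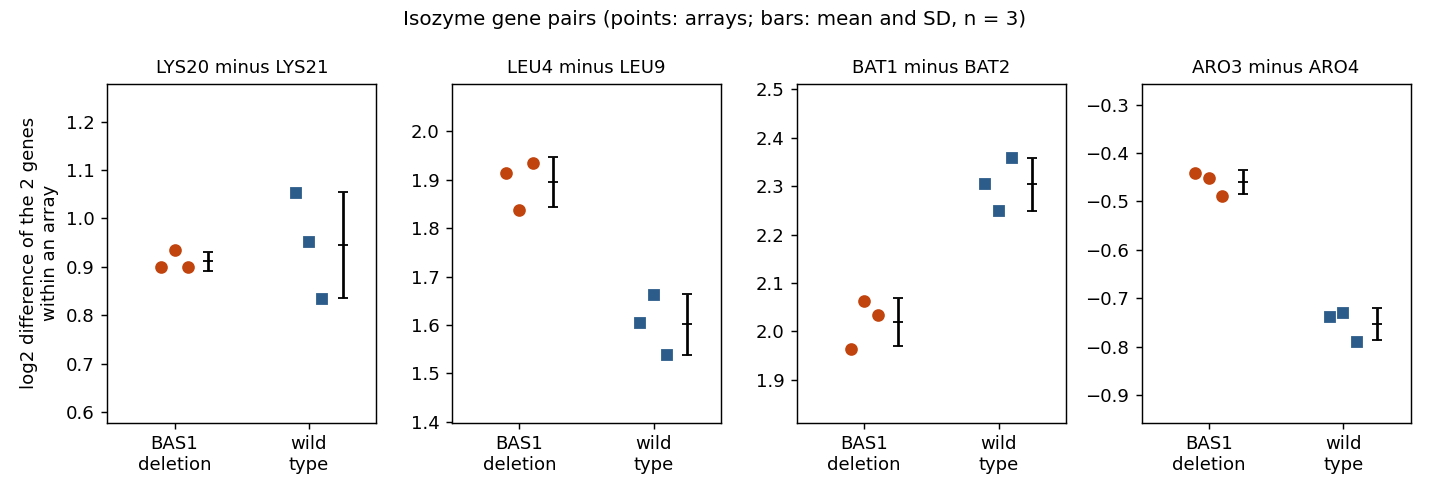
Log2 difference of the 2 genes of each isozyme pair within each array, BAS1 deletion at left and wild type at right of every panel, with mean and SD of 3 arrays; each panel spans the same height. The strains separate for LEU4 and LEU9 (change 0.29), BAT1 and BAT2 (-0.28) and ARO3 and ARO4 (0.29) and overlap for LYS20 and LYS21 (-0.035).

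The enzymes known to work in mitochondria were encoded by 10 members (ILV1, ILV2, ILV3, ILV5, ILV6, BAT1, LEU4, LEU9, LYS4 and LYS12), of which 2 rose and 3 fell, with a median log2 difference of -0.04. Of the other 20 members 11 rose and 3 fell, with a median of 0.17. Over all genes 39.6% were called higher and 19.8% lower, with a median of 0.11. Array centring changed both lists. Among the mitochondrial members ILV6 was then called higher, and ILV3, ILV5, LEU9, LYS4 and LYS12 lower. Among the others LYS5, ARO3, ARO4 and ARO1 were called higher, and LYS9, LYS2, LEU1, LEU2, TRP4 and ARO7 lower. Compartment and pathway overlap here, since no aromatic gene is in the mitochondrial list, and the difference between these lists was not tested.

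Among 6 regulators listed for these amino acids, of which ARO80 acts on breakdown, 3 rose and none fell on the values as deposited. Limma gave no fall there at an unadjusted p under 0.05 either. Of all genes 39.6% were called higher and 19.8% lower on the same values. After quantile normalization the count was 1 rise and 1 fall, and 2 and 1 after array centring or cyclic loess. The fall was that of GCN2 each time, not called as deposited (log2 difference -0.15, limma adjusted p = 0.114). It was -0.31 after quantile normalization (0.0146), -0.30 after array centring (0.0142) and -0.245 after cyclic loess (0.0266). LYS14 (YDR034C), the activator gene of the lysine pathway, had levels of 12.24, 12.51 and 12.38 in the deletion arrays and 11.67, 11.74 and 11.91 in the wild-type arrays. It rose 1.52-fold (log2 difference 0.60, limma adjusted p = 0.00213) and was called higher under each scaling. LEU3, the activator gene of the leucine branch, averaged 9.91 ± 0.07 in the deletion strain and 9.70 ± 0.06 in wild type (SD, n = 3 each) and rose 1.15-fold (limma adjusted p = 0.0243). Quantile normalization turned the LEU3 difference to -0.11 and cyclic loess to -0.03, both without a call. The LEU3 call also ended without deletion replicate 2 (0.0574) or 3 (0.0799) and without wild-type replicate 1 (0.0693) or 2 (0.0699). GCN4, the activator gene of general amino acid control, had levels of 14.36, 14.38 and 14.30 in the deletion arrays and 14.37, 14.02 and 14.12 in the wild-type arrays. Its groups overlapped through wild-type replicate 1, and without that array limma gave an adjusted p of 0.017 in place of 0.145. With any other array left out GCN4 did not pass, at limma adjusted p from 0.193 to 0.352. After array centring its log2 difference was 0.02 (limma adjusted p = 0.87). Gcn4 is known to be controlled mainly by translation, which these arrays do not measure. ARO80, the activator gene of aromatic amino acid breakdown, rose 1.45-fold, with a limma adjusted p of 0.0117, and 0.0837 after quantile normalization.

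Of 5 further enzymes and carriers of the routes 3 rose and 1 fell, the same counts under each scaling, beside 39.6% and 19.8% of all genes as deposited. ODC1 and ODC2, genes of the mitochondrial carriers for 2-oxoadipate and 2-oxoglutarate, rose 1.90-fold and 1.38-fold. OAC1 (YKL120W), a mitochondrial carrier gene whose product also exports alpha-isopropylmalate for leucine synthesis, had levels of 12.47, 12.83 and 12.73 in the deletion arrays and 13.16, 13.29 and 13.31 in the wild-type arrays. It fell 1.49-fold (log2 difference -0.57, SE 0.10, limma adjusted p = 0.00339), more than any member. ARO9, an aromatic aminotransferase gene known for amino acid breakdown, had levels of 11.86, 11.79 and 11.61 in the deletion arrays and was below background in all wild-type arrays, so that it rose at least 39.6-fold (adjusted p = 5.4e-07). This bound sets the deletion mean against, in each wild-type array, the higher of the background level and the measured value. ARO8, the aminotransferase gene that serves synthesis, differed by 0.11 (limma adjusted p = 0.132).

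Threonine feeds isoleucine synthesis through Ilv1. In the branch from aspartate to threonine 3 of 5 genes rose and none fell, also at an unadjusted p under 0.05 in limma. Over all genes 39.6% were called higher and 19.8% lower, and so short a list cannot be set apart from that share. After quantile normalization the counts were 2 and 1 and after array centring 1 and 1. The fall in both was that of THR1 (log2 difference -0.23 and -0.27). HOM3 (YER052C), the aspartate kinase gene of the entry step, had levels of 13.55, 13.64 and 13.57 in the deletion arrays and 13.04, 13.04 and 13.09 in the wild-type arrays. It rose 1.44-fold (log2 difference 0.53, SE 0.05, limma adjusted p = 1.8e-04) and was called higher under each scaling. HOM2 rose 1.17-fold and THR4 1.15-fold. HOM2 no longer passed after array centring (log2 difference 0.08, limma adjusted p = 0.265). THR4 no longer passed after array centring (0.05, 0.467) or quantile normalization (0.17, 0.0528). The THR4 call also ended without deletion replicate 2 (0.0522) or 3 (0.0525) or wild-type replicate 1 (0.0589).

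The arrays of a strain were not alike for these genes. In 27 of 30 members deletion replicate 2 was the highest of the deletion arrays, against 46.6% of all genes. The median deviation of that array from the deletion mean was 0.07 over the members and 0.02 over all genes. Among the wild-type arrays replicate 3 was the highest in 15 members, or 50%, against 36.6% of all genes. The median deviation of that array was 0.02 over the members and 0.0032 over all genes. Deletion replicate 2 is a high-spike array, as are deletion replicate 3 and wild-type replicate 3, and the part of the spike level in this was not tested. Without deletion replicate 2 the pathway medians were -0.014 for lysine, -0.033 for branched-chain and 0.17 for aromatic synthesis.

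**Figure D5:**
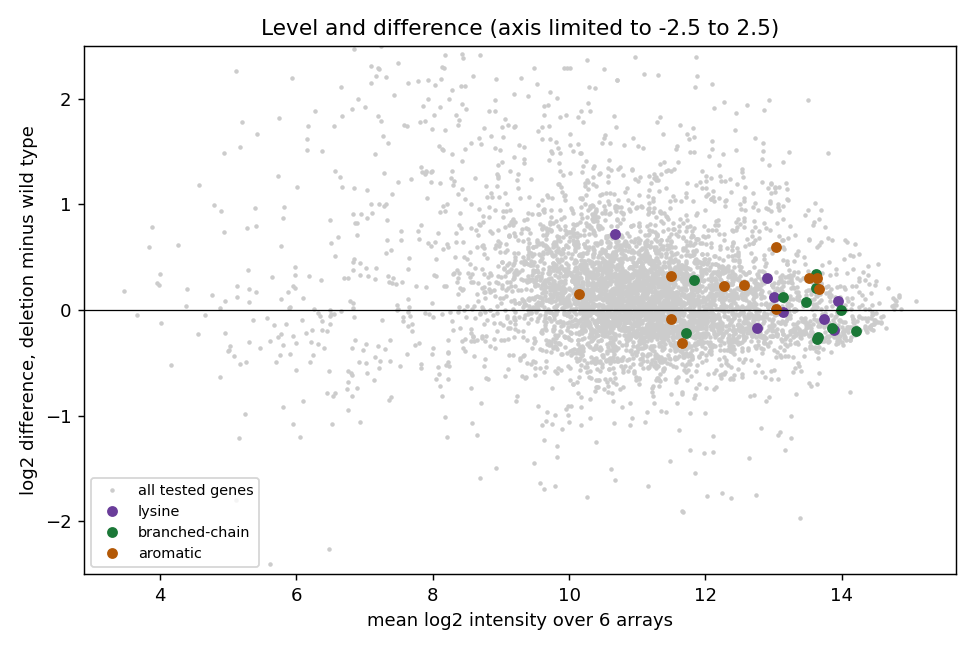
Mean log2 intensity over the 6 arrays and log2 difference, BAS1 deletion minus wild type, of all 5449 tested genes (grey; values beyond the vertical axis are not shown) and of the members by pathway. Most members lie among the bright genes at the right, and all lie between -0.31 and 0.72.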

How the data were processed

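Messenger RNA of 3 BAS1 deletion and 3 wild-type FY4 samples was measured on Affymetrix arrays. The authors deposited linear-scale intensities, made with affy and RMA under R 2.8.0, per the submitters' processing notes. Across all probe sets, the array medians in log2 were 8.47, 8.52 and 8.65 for the deletion mutant. They were 7.89, 7.88 and 7.81 for wild type. The scale thus stayed unequal between the strains although RMA is named, and the reason was not tested. RMA makes no detection calls, and it compresses dim signals. The number of arrays limits the precision.

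All tests used log2 of these values. The 10928 probe sets comprise 5498 with a single gene of the RefSeq table (assembly R64), 1746 with a single gene outside it, 1 with several genes, 3470 with none, 166 array controls and 47 reporters. The brightest probe set stood for a gene with several, which left 5449 genes. Strains were compared by limma (version 3.58.1, lmFit and eBayes, R 4.3.3), adjusted by Benjamini-Hochberg over all genes, with a threshold of 0.05. The fit was tested on simulated data. Background was the higher of 6.23 in log2, the percentile 95 of those 1746 probe sets over all arrays, and the array's own percentile 95. All members are named, with BAS1, GCN4, LEU3 and LYS14, and up to 4 called genes of each other list, those with the largest differences. ARO8, GCN2 and THR1, which were not called on the deposited values, are named besides these. The members and lists were chosen with earlier results of these data known. Alternatives covered scaling, filters, probe sets, variance, weights, spike level, the replicate block and leaving out each array. No 2 arrays held identical values. Promoter and protein sequences were not used here.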

Additional observations from a re-analysis of the deposited data

How the results depend on the processing

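BAS1 stayed lower and called under every alternative run (-6.57 to -6.21). Over all genes limma called 1356 rises and 1935 falls after quantile normalization, 1803 falls after array centring, 1825 falls over all probe sets, and 679 falls at an adjusted p under 0.01. It called 1102 rises and 491 falls in the low-spike arrays and 614 falls in the high-spike arrays, each a set of 2 arrays against 1, in which the single array is assumed to vary like the others. Aromatic rises numbered 4 after quantile normalization, 3 after array centring, 5 over all probe sets, 3 at 0.01, 1 in the low-spike and 3 in the high-spike arrays. Aromatic falls numbered 2 after quantile normalization, array centring or cyclic loess and 0 in either spike set (1 at an unadjusted p under 0.05 in each). Branched-chain rises numbered 1 after array centring, 0 in the low-spike arrays (2 at an unadjusted p under 0.05) and 1 in the high-spike arrays, and falls 2 at 0.01 and 0 in either spike set (2 unadjusted in each). Lysine rises numbered 1 after array centring and in either spike set. Lysine falls numbered 4 after array centring, 2 after quantile normalization or cyclic loess, with dim genes left out, a variance trend, array weights or spike level as a block, and 0 over all probe sets, at 0.01 (by construction) and in either spike set (1, 2, 1 and 0 unadjusted). With 1 array left out, rises ran from 1847 to 2053 and falls from 862 to 979 over all genes, from 5 to 7 and 1 to 1 for aromatic, 3 to 3 and 3 to 5 for branched-chain, and 2 to 3 and 0 to 2 for lysine genes.

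Direction turned for LEU4 (-0.00040), ARO2 (-0.10) and PHA2 (-0.090) after quantile normalization, for LYS20 (-0.070), LYS21 (-0.035), ILV1 (-0.035), LEU4 (-0.077), BAT1 (-0.15), ARO2 (-0.14) and PHA2 (-0.0067) after array centring, and for ARO2 (-0.017) and PHA2 (-0.036) after cyclic loess. It turned for BAT1 (-0.0012) and ARO2 (-0.019) with array weights, BAT1 (-0.022) with spike level as a block, BAT1 (-0.016) and ARO2 (-0.026) in the low-spike arrays, and LYS21 (-0.022), LYS2 (0.0097) and BAT1 (-0.029) in the high-spike arrays. With 1 array left out LYS2 ran from -0.063 to 0.011, BAT1 from -0.033 to 0.027, ARO2 from -0.036 to 0.047 and LYS20 minus LYS21 from -0.091 to 0.019. Of these genes PHA2 was the one called on the deposited values. The cause was not tested. The other pair changes, also with 1 array left out, ran from 0.27 to 0.31 for ARO3 and ARO4. They ran from -0.31 to -0.26 for BAT1 and BAT2 and from 0.26 to 0.32 for LEU4 and LEU9.

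Deviations of same-numbered arrays correlated at 0.44 for replicate 1, -0.51 for replicate 2 and -0.44 for replicate 3 over all genes. Not every pair deviated together, so the numbers were not taken to pair the samples. With the replicate block, limma called 2130 rises and 1010 falls, and of the members LEU9, TRP3 and PHA2 lost their calls.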
